A study of Mus musculus with 6 samples.

Results

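A set of 42 genes of the neuronal cytoskeleton and of neurite growth was described in N2A cells, a mouse neuroblastoma line, after transfection with a construct against the transcription factor gene Pou3f3. The genes were chosen by name, and each was read from an array row whose sole gene symbol was that gene, taking the row with the highest mean over the 6 arrays where there were several. All 42 were found among 19938 symbols on 21789 rows with a single symbol. The arrays comprised 3 of control cells, transiently transfected with a non-targeting vector, and 3 of cells that received, also transiently, a construct expressing a short hairpin RNA (shRNA) against Pou3f3. All cells were otherwise grown alike, received 1.5 ug of construct and were harvested for total RNA 2.5 days later. Which of the hairpins designed against Pou3f3 was transfected is not stated in the sources used here. The knockdown is described as made with a targeting vector, so it is read here as resting on a single construct. The design calls the samples biological replicates. They are cultures of a single line, so the p-values speak only of the variation among cultures of that line.

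Neurites are built on microtubules of alpha and beta tubulin, on neurofilaments and on actin. Structural microtubule-associated proteins stabilise and bundle the microtubules, whereas stathmins bind free tubulin and promote disassembly. In the growth cone, GAP43-like membrane proteins, small GTPases, their kinases and actin-binding proteins steer the advancing tip, and reelin signalling and the kinase Cdk5 guide migrating neurons. N2A cells extend neurites when they are induced to differentiate, but the cells on these arrays were not labelled as differentiated.

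All levels are log2 array values and all differences are knockdown minus control. A gene was called when its limma adjusted p was under 0.1 and its difference reached 1.3-fold, which is 0.379 on the log2 scale. The targeted gene Pou3f3 read 8.37, 8.30 and 8.47 on the control arrays and 8.20, 8.09 and 8.35 on the knockdown arrays. Its groups overlapped, although the knockdown array was the lower within each number, by differences of -0.17, -0.21 and -0.12. The mean difference of -0.16 ± 0.08 (SE, n = 3 per group) was not called (limma adjusted p = 0.303, or 0.0880 in a fit blocked by replicate number). The groups below are named by their labels. Of 7 measured markers of sympathoadrenal neuroblastoma, control means ran from 9.91 to 13.80 and 1 was called lower, whereas 25 markers of glia, blood, endothelium, fibroblasts and muscle had control means from 6.22 to 9.07. The 1 called lower was Dbh, a catecholamine enzyme gene, at -1.17, and in the blocked fit Th, another such gene, was also called lower (-0.38, limma adjusted p = 0.133, or 0.0420 with the block). Chgb, Chga and Gata3 lay at -0.38, -0.35 and -0.33 (limma adjusted p = 0.0456, 0.0628 and 0.0484), below the fold required. Phox2a lay at -0.18, and only Hand2 was above 0, at 0.04. The median difference of the 7 was -0.35. The summed linear level of the 7 ran from 41159 to 44211 in control and from 32409 to 33625 in knockdown cells. Among the other 25, 1 was called higher and 0 lower, and their sum ran from 6292 to 6495 in control and from 6034 to 6363 in knockdown cells. The part of these shifts in the results below was not tested, and in bulk RNA fewer cells of a type cannot be told apart from less RNA per cell. Samples numbered 1 deviated together, whereas those numbered 2 and 3 did so little more than arrays of unlike number. The pair numbered 1 stood farthest from the others on 47.9% of rows and in 25 of the 42 genes.

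Most of the neurite machinery differed little between control and knockdown cells. Of the 42 genes, 1 was called higher (Nexn) and 0 lower, where 1.3% of all rows were called higher and 0.684% lower, or 1.99% in either direction. At an unadjusted limma p under 0.05 there were 2 higher and 5 lower. The median difference was -0.05, against -0.03 over all rows, and 29 of the 42 genes lay below 0, where 57.5% of all rows did. Absolute differences were under 0.1 in 30 of the 42 genes and in 50.8% of all rows. For 37 of the 42 genes the 95% confidence interval of the difference lay within 1.3-fold in either direction, as for 77.7% of all rows. These 37 include Dcx, Tubb4a, Nefl, Nefm, Dpysl4, Pak3, Reln, Vldlr and Dab1, whose levels were low, as given below. Their detection above background was not analysed, so their small differences say little about the transcripts. The 5 genes whose interval reached past 1.3-fold were Nexn, Basp1 and Marcks on the higher side and Dclk1 and Nefh on the lower side.

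**Figure D1:**
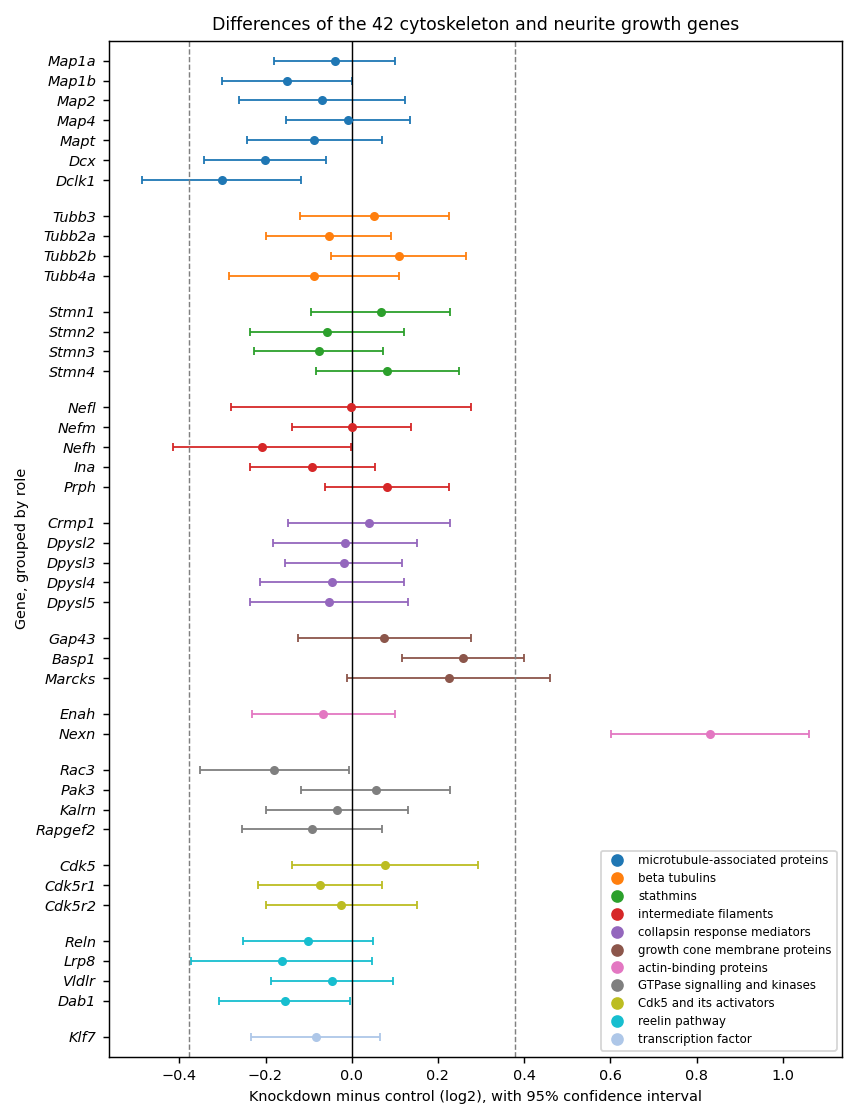
Differences between knockdown and control (horizontal axis, log2) of the 42 genes with 95% confidence intervals from limma (n = 3 per group), coloured by role, with dashed lines at 1.3-fold. Nexn stands at 0.83, and the other 41 genes lie between -0.30 and 0.26.

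Among the actin-binding proteins, Nexn rose. It encodes nexilin, a filament-binding protein best known from the Z-discs of heart and skeletal muscle. Nexn read 6.63, 6.51 and 6.57 on the control arrays and 7.48, 7.56 and 7.17 on the knockdown arrays. The groups were apart, with the lowest knockdown array above the highest control array. The difference of 0.83 ± 0.10 (SE, n = 3 per group) is 1.78-fold, with a 95% confidence interval of 0.60 to 1.06 (limma adjusted p = 0.0128, or 0.00111 with the replicate block). Between arrays of the same number it was 0.85, 1.05 and 0.59. Nexn remained called on leaving out any single array (limma adjusted p from 0.0146 to 0.0635), but not when all 35556 rows of the table were tested (0.1035) or when only rows with a variance above the median of all rows were kept (0.155), which is one reading of the filter in the methods. It was also not called without both arrays numbered 2 (0.220) or 3 (0.161), when 2 arrays per group were left. Both group means of Nexn lay within the range of the 25 markers of other cell types. Of the 6 muscle markers measured, the filament gene Des was called higher (0.39 ± 0.10, SE, limma adjusted p = 0.0797), whereas Myod1, Myog, Ckm, Acta1 and Tnnt2 lay between -0.21 and -0.05. The summed linear level of the muscle markers ran from 1993 to 2058 in control and from 1827 to 2089 in knockdown cells, and its part in the Nexn result was not tested. The other actin-binding gene, Enah, whose product carries actin polymerisation at the filament tip, differed by -0.07 ± 0.07 (SE).

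The growth cone membrane genes Basp1, Marcks and Gap43, whose products bind the inner face of the membrane and are substrates or partners of protein kinase C and calmodulin signalling, all lay above 0. Basp1 read 12.52, 12.49 and 12.53 in control cells and 12.83, 12.74 and 12.74 in knockdown cells. Its groups were apart by more than the spread within either of them. The difference of 0.26 ± 0.06 (SE) had a limma adjusted p of 0.0780, or 0.0218 with the replicate block, but at 1.20-fold it was below the fold required for a call. On adjusted p alone, Basp1 and Nexn were the 2 higher genes and 0 were lower, where 2.66% of all rows were higher and 1.79% lower. The adjusted p of Basp1 exceeded 0.1 on leaving out any single array (0.1085 to 0.264). Marcks read 11.30, 11.21 and 11.07 in control and 11.63, 11.38 and 11.24 in knockdown cells. Its groups overlapped, although within each number the knockdown array was the higher, by 0.33, 0.16 and 0.18. The mean difference was 0.22 ± 0.10 (SE, limma adjusted p = 0.268, or 0.0431 with the replicate block). Gap43 differed by 0.08 ± 0.09 (SE, limma adjusted p = 0.653).

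All 7 microtubule-associated protein genes lay below 0, where 57.5% of all rows did, and none was called. Of 26 other microtubule regulators, 10 lay below 0 and 16 above. Dclk1, a doublecortin-like kinase that binds microtubules, had the lowest difference of the 42 genes. It read 10.81, 10.68 and 10.79 on the control arrays and 10.60, 10.33 and 10.44 on the knockdown arrays. The groups did not overlap. The difference of -0.30 ± 0.08 (SE) had an interval of -0.49 to -0.12 and a limma adjusted p of 0.105, or 0.0143 with the replicate block, and was below the fold required. Its relative Dcx, the doublecortin gene of migrating neurons, differed by -0.20 ± 0.06 (SE, limma adjusted p = 0.141, or 0.0481 with the block). Its control values of 6.47, 6.503 and 6.46 lay above its knockdown values of 6.23, 6.33 and 6.26. The family was divided, since among the further genes compared below Dclk3 lay at -0.18 but Dclk2 at 0.24 ± 0.07 (SE). Dclk2 had a limma adjusted p of 0.119, or 0.0359 with the block. Neither gene had groups that overlapped. Map1b differed by -0.15, and its groups did not overlap either. Mapt, which encodes tau, and the dendritic Map2 differed by -0.09 and -0.07. The axonal and dendritic Map1a and the broadly expressed Map4 differed by -0.04 and -0.01, and a further row of Map4 by -0.08. The intervals of these 5 genes all lay within 1.3-fold.

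The upstream sequences of Basp1 and Dclk1 are shown because these genes had the highest and the lowest differences after Nexn, and because the knockdown was aimed at a factor that binds DNA. Class III POU factors such as Pou3f3 recognise octamer-like sites. Windows of 250 bases upstream of annotated starts were taken from RefSeq on GRCm38.p6 and were found for 26 of the 42 genes, with 37 windows in all. Nexn was among the 16 genes without one. The octamer ATGCAAAT, searched on both strands, occurred in 0 of the 37 windows, and in 1.6% of 32851 windows of all genes. The GC box GGGCGG, also on both strands, occurred in 19 of the 37 and in 32.7% of all windows. Capitals mark the GC boxes, some of which overlap. Basp1 has a single window on the minus strand (chr15:25413765-25414014) and Dclk1 has 2 on the plus strand (chr3:55242114-55242363 and chr3:55461478-55461727).
Basp1: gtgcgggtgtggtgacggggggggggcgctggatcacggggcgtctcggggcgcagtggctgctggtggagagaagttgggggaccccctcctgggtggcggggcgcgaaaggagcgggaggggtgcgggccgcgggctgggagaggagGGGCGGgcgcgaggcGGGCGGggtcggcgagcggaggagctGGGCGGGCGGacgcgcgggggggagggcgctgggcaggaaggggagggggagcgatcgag
Dclk1 upstream start: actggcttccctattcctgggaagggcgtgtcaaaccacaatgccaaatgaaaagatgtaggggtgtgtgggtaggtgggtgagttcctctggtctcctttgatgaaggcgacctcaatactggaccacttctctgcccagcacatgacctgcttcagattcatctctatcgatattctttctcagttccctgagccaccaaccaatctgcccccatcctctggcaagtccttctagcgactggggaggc
Dclk1 downstream start: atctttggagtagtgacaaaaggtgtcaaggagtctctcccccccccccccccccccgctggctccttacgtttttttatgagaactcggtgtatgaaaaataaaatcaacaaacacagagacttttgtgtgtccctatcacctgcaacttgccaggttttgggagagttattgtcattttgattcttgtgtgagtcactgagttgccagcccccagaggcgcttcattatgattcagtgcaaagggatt
The Basp1 window was 78.8% G and C with 30 CpG dinucleotides, whereas the Dclk1 windows were 52.4% and 46.8% with 4 each. The median over the 37 windows was 61.6%, against 52.4% over all windows. A match, or the lack of one, describes only the letters in these windows.

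**Figure D2:**
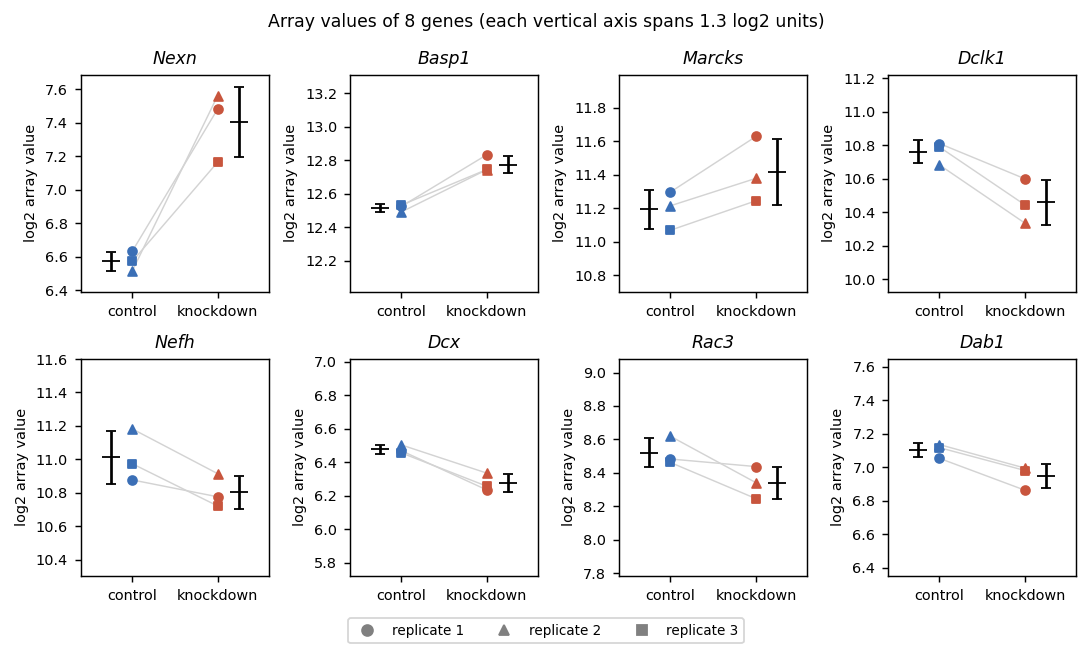
Levels on each array in log2 units (vertical axes, all of equal span) for the 8 genes whose adjusted p was under 0.1 in the fit blocked by replicate number. Symbols mark replicate numbers, grey lines join arrays of the same number, and bars are means ± SD (n = 3). Nexn, Basp1, Dclk1, Dcx, Rac3 and Dab1 show groups that do not overlap, and those of Marcks and Nefh overlap. The genes were picked by that fit, which favours groups that lie apart. Over all rows, groups did not overlap on 15.1% on the lower side and 10.9% on the higher side.

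No tubulin or stathmin gene was called. Of the beta tubulins, which form microtubules with alpha tubulin, Tubb2b read 13.12, 13.29 and 13.25 in control and 13.31, 13.32 and 13.36 in knockdown cells. These groups did not overlap, but their means differed by only 0.11 ± 0.07 (SE, limma adjusted p = 0.399). The neuronal Tubb3 differed by 0.05, Tubb2a by -0.05 and Tubb4a by -0.09. The intervals of all 4 lay between -0.29 and 0.27. The stathmins, which sequester tubulin dimers, were divided, with Stmn4 at 0.08 and Stmn1 at 0.07 but Stmn2 at -0.06 and Stmn3 at -0.08. Stmn4 read 10.33, 10.52 and 10.54 in control and 10.54, 10.57 and 10.53 in knockdown cells, and control array 1 was the lowest of the 6. The difference was 0.08 ± 0.07 (SE, limma adjusted p = 0.546). The intervals of the 4 stathmins lay between -0.24 and 0.25. A further row of Stmn1 gave 0.07 and one of Stmn3 gave -0.06. RNA of near-identical tubulin genes may hybridise to shared probes, which was not tested.

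The intermediate filament genes were likewise uncalled. The heavy neurofilament gene Nefh read 10.88, 11.18 and 10.98 in control cells and 10.78, 10.91 and 10.72 in knockdown cells. Its groups overlapped at a single pair of arrays, and within each number the knockdown array was the lower. The difference was -0.21 ± 0.09 (SE, limma adjusted p = 0.2504, or 0.0540 with the replicate block). The light and medium neurofilament genes Nefl and Nefm differed by -0.0016 and 0.000058, alpha-internexin (Ina) by -0.09 and peripherin (Prph), the filament of peripheral neurons, by 0.08. Nefl ranged from 6.35 to 6.78 within the control arrays alone.

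The collapsin response mediators, cytosolic proteins that relay semaphorin signals to the cytoskeleton, were also uncalled. Their 5 differences ran from -0.05 in Dpysl5 to 0.04 in Crmp1, with Dpysl2, Dpysl3 and Dpysl4 at -0.02, -0.02 and -0.05. Dpysl5 read 10.69, 10.88 and 10.88 in control and 10.68, 10.74 and 10.87 in knockdown cells. These groups overlapped (-0.05 ± 0.08, SE, limma adjusted p = 0.737). All 5 intervals lay between -0.24 and 0.23.

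Among the signalling genes, Rac3 read 8.48, 8.62 and 8.46 in control and 8.44, 8.34 and 8.25 in knockdown cells. The groups lay apart by a margin smaller than their spread, at -0.18 ± 0.08 (SE, limma adjusted p = 0.237, or 0.0939 with the replicate block). The kinase gene Pak3 differed by 0.06, and the exchange factor genes Kalrn and Rapgef2 by -0.03 and -0.09. Cdk5, the kinase of postmitotic neurons, read 11.15, 11.36 and 11.45 in control and 11.26, 11.49 and 11.45 in knockdown cells. The groups overlapped and the difference of 0.08 ± 0.10 (SE, limma adjusted p = 0.666) was smaller than the spread between replicate numbers. Its activator genes Cdk5r1 and Cdk5r2 differed by -0.07 and -0.02.

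All 4 genes of the reelin pathway lay below 0 without a call, where 57.5% of all rows lay below 0. Of 14 other reelin and migration genes, 4 lay below 0 and 10 above. The levels of Reln, Vldlr and Dab1 were low, as given below. Reln encodes the secreted ligand, Lrp8 and Vldlr its receptors, and Dab1 the adaptor that the receptors phosphorylate through Src-family kinases. Lrp8 read 11.33, 11.53 and 11.47 in control and 11.16, 11.46 and 11.23 in knockdown cells. Its groups overlapped, and the difference was -0.16 ± 0.09 (SE, limma adjusted p = 0.355, or 0.106 with the block). Dab1 read 7.05, 7.14 and 7.12 in control and 6.86, 6.995 and 6.98 in knockdown cells. Its groups did not overlap, at a difference of -0.16 ± 0.07 (SE, limma adjusted p = 0.242, or 0.0980 with the block). Reln and Vldlr differed by -0.10 and -0.04. Klf7, a zinc finger factor needed for axon growth, read 12.25, 12.37 and 12.34 in control and 12.28, 12.19 and 12.25 in knockdown cells. Those groups overlapped (-0.08 ± 0.07, SE, limma adjusted p = 0.494).

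Several of these small differences kept their direction in all 3 pairs of same-numbered arrays, as did many over all rows. Of the 42 genes, 18 were lower and 6 higher in all 3 pairs, where 29% and 23.8% of all rows were. Groups did not overlap in 6 genes on the lower side and 3 on the higher side, against 15.1% and 10.9% of all rows. In the fit blocked by replicate number the calls were again 1 higher and 0 lower, where 1.74% and 0.757% of all rows were called. On adjusted p alone in that fit, 5 genes were lower (Dclk1, Dcx, Nefh, Rac3 and Dab1) and 3 higher (Nexn, Basp1 and Marcks), which compares with 10.7% and 12.3% of all rows. Whether any of these counts differs from that of all rows was not tested.

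The replicate numbers differed from one another in many of these genes. In 27 of the 42 genes the spread between the means of the 3 replicate numbers exceeded the difference between the groups, as in 62.7% of all rows. The arrays numbered 1 were higher than the mean of the others by 0.24 for Marcks, 0.21 for Gap43, 0.18 for Map2 and 0.16 for Stmn2. The same quantity was -0.27 for Nefl, -0.23 for Cdk5, -0.18 for Crmp1 and -0.18 for Lrp8. The median difference of the 42 genes was -0.01, -0.07 and -0.04 in pairs 1, 2 and 3.

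**Figure D3:**
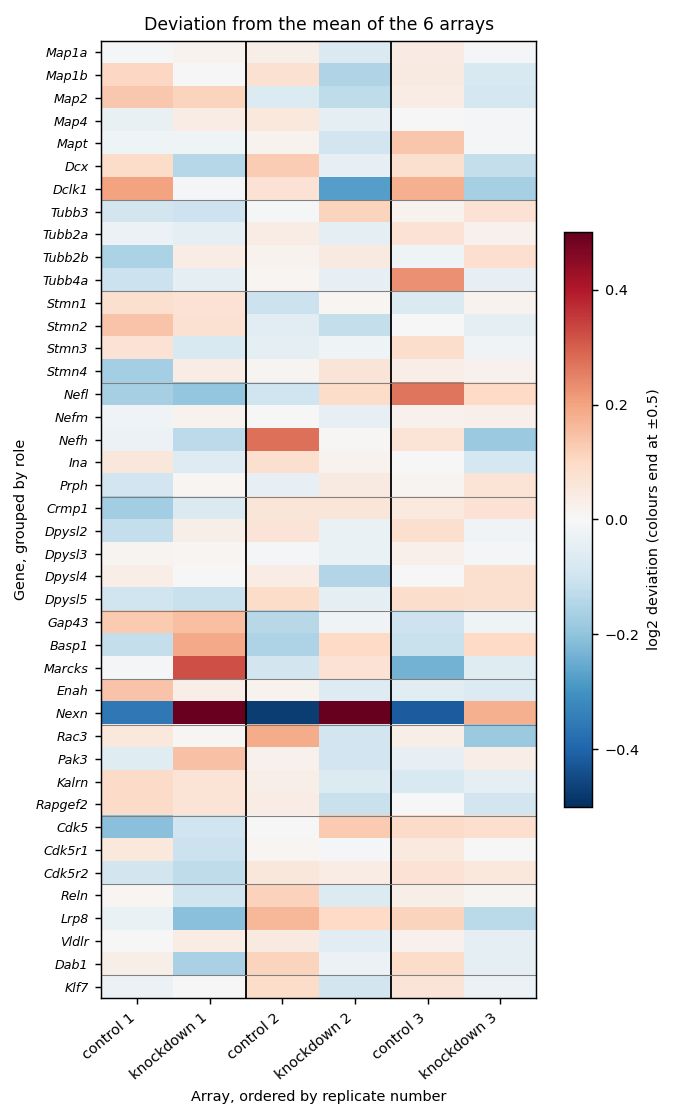
Deviation of each array (columns, ordered by replicate number) from the mean of the 6 arrays for the 42 genes (rows, grouped by role), in log2 units with colours ending at ±0.5. Nexn alone separates control from knockdown strongly, and genes such as Gap43, Cdk5 and Crmp1 differ between the arrays numbered 1 and the others.

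For 10 genes, Dcx, Tubb4a, Nefl, Nefm, Dpysl4, Nexn, Pak3, Reln, Vldlr and Dab1, the control mean was no higher than 8.41, the upper quartile of the 25 markers of other cell types. Detection above background was not analysed, and levels of different rows depend on their probes. The other 32 genes stood above that value, among them the tubulins Tubb3 and Tubb2b, Map1b, Prph and all 4 stathmins.

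Further genes were compared in 8 lists, of which 166 genes had a row with a single symbol. Most belong to the same machinery, but 2 of the lists hold other Krueppel-like factors and filament or contractile genes of glia and other tissues. Of the 166, 5 were called higher and 0 lower, beside the 1.3% and 0.684% of all rows, and the median difference was 0.01. In the blocked fit 6 were called higher, with Lmnb1, a nuclear lamin gene, as the addition (0.40, limma adjusted p = 0.120, or 0.0136 with the block). Rhob and Rnd3 rose by 0.49 ± 0.12 and 0.43 ± 0.09 (SE, limma adjusted p = 0.0840 and 0.0540). Rhob read 10.27, 9.86 and 9.79 in control and 10.54, 10.52 and 10.32 in knockdown cells. The exchange factor gene Vav3 rose by 0.43 ± 0.09 (adjusted p = 0.0545). Nde1, a dynein regulator of mitosis and neuronal migration, rose by 0.42 ± 0.07 (adjusted p = 0.0300) and was the 1 call among 14 other reelin and migration genes. Des, described above, was the fifth, in a list of 18 filament and contractile genes of glia and other tissues. None of 8 other tubulins, 26 other microtubule regulators, 33 other actin and growth cone regulators, 16 spectrins, ankyrins and septins or 16 other Krueppel-like factors was called. The lowest of the 166 differences was that of the actin pointed-end capping gene Tmod2 (-0.32 ± 0.07, SE, limma adjusted p = 0.0601), and the axon initial segment gene Ank3 differed by -0.29 (adjusted p = 0.0983). Both were below the fold required. Among these 166 genes 0 were called higher without control replicate 2 or without knockdown replicate 2. The count was 1 without control replicate 3, 2 without knockdown replicate 1 and 3 without knockdown replicate 3.

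**Figure D4:**
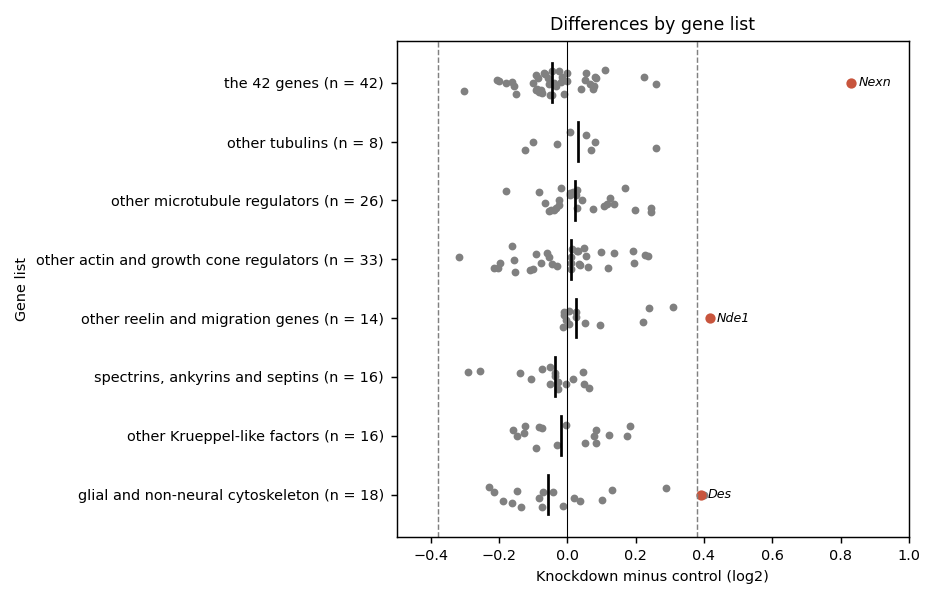
Differences between knockdown and control (log2) of the 42 genes and of 131 of the further genes, in 7 lists. Red points are called, black bars are list medians and dashed lines mark 1.3-fold. Nde1 and Des, at 0.42 and 0.39, are the called genes of these 7 lists, below Nexn at 0.83.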

How the data were processed

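Total RNA of 3 control and 3 knockdown cultures was labelled and hybridised to Affymetrix mouse whole-gene arrays. The authors applied RMA background correction and quantile normalisation and summarised the signal at the level of genes. The deposited values are log2 and ran from 3.16 to 14.89. RMA and limma are named, without versions, in the submitters' processing notes. Quantile normalisation hides a change shared by most transcripts. Raw intensities and detection calls were not used here, and precision is limited by having 6 arrays.

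Gene names came from the annotation table of the platform, with symbols updated by Entrez identifier from a RefSeq table of GRCm38.p6. Of 35556 rows, 21789 carried 1 symbol, 1621 carried several and 12146 were absent from the annotation. Those with 1 symbol were fitted with lmFit and eBayes in limma 3.58.1 (R 4.3.3), without a block, and adjusted by Benjamini-Hochberg over all of them. Calls required an adjusted p under 0.1 and 1.3-fold. The methods also filter on variance, with a cut-off whose scale is not stated, and this was run as an alternative that kept rows above the median variance. The fit was tested on simulated data whose noise was independent between arrays, with no effect of the replicate number. Recovery of changed rows was required there only at folds larger than the 1.3-fold used for calls.

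Deviations of same-numbered arrays from their group means correlated at 0.638, 0.307 and 0.289 for numbers 1, 2 and 3. The highest correlation of a control array with a knockdown array of another number was -0.369, 0.254 and 0.216. The numbers were taken to pair the arrays, although only number 1 stood clearly apart in this respect. Values from the fit with the number as a block rest on that pairing. They are given where they change a call and for several of the 42 genes. The genes and lists were chosen with earlier results of these data known. Array values are given for genes that were called or had an adjusted p under 0.1 and for the gene of each role with the largest absolute difference. Those of Dcx, Marcks and Dab1 were added after their values were seen, as was the comparison with the upper quartile of marker levels. Of 184 list symbols, 14 had no row with 1 symbol. A list counted among the 166 further genes is not reported on its own here.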

Additional observations from a re-analysis of the deposited data

How the results depend on the processing

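Nexn was the gene called higher in the analysis reported, on leaving out each array and with the replicate block, median centring, cyclic loess, a trended robust fit, array weights, 1 row per symbol, the row with the lowest mean, filters on dim rows or on variance among rows with 1 symbol, and an adjusted p under 0.05. The count called higher was 0 with all rows of the table, among rows above the median variance of all rows, and without both arrays numbered 2 or 3. On adjusted p alone it was 2, or 3 with the replicate block, when 5 were lower. Over the 9 of the 42 genes that passed this variance filter, the median difference was -0.0016. Pou3f3 (-0.16) passed in the fit with the replicate block and no fold required (limma adjusted p = 0.0880). With the fold required, the replicate block changed no call among the 42 genes. Of the 166 further genes, 6 were called higher with the block and 5 without it.

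Of the 166 further genes, 5 were called higher and 0 lower. The higher count was 0 with all rows, among rows above the median variance of all rows, and without both arrays numbered 2 or 3. It was 3 after cyclic loess, 1 at an adjusted p under 0.05 and from 0 to 6 on leaving out 1 array, when the lower count ran from 0 to 1. With no fold required 2 were lower, and with the replicate block and no fold required 28 were higher and 14 lower. Over the whole array, calls were 284 higher and 149 lower, against 10 and 18 with all rows, 2 and 10 under the variance filter, and 232 and 193 after cyclic loess. They were 78 and 83 without control replicate 2, 129 and 90 without control replicate 3, and 67 and 80 without knockdown replicate 2. The causes were not tested. Settings without both arrays of a number and the block with no fold were chosen after seeing the data. The direction of the 11 genes described by the fixed rule held in every setting that gave a value, except Cdk5, which was -0.0079 without control replicate 1.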
